A study of Homo sapiens with 2 samples.

Results

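The intervals described here are short stretches of nascent DNA that lie at the far ends of the long arms of chromosomes 1 to 22 in U2OS cells. An interval was included where its midpoint lay within 5 Mb before the highest interval end on its chromosome, so its position alone decided membership. This gave 17164 intervals, which were 10.6% of the 161869 named intervals in the series and 10.8% of the 159490 on chromosomes 1 to 22. The other 142326 intervals of these 22 chromosomes are called the remainder. The 22 ends added up to 110 Mb, or 3.94% of the sequence between the first and the last interval of each chromosome.

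U2OS is an established wild-type osteosarcoma line from bone with a rearranged, aneuploid karyotype. Its cells were arrested before S phase by 2 rounds of thymidine and collected 2 hours after release, early in S phase. The 2 libraries (replicates 1 and 2) form 1 group, no control library was analysed here, and no label says that they came from separate cultures. Both enter every value as 1 intersected set, so the errors below are spreads over chromosomes and not between replicates. Chromosomes are not biological replicates, so differences between ends and remainder are given as descriptions with no p-value. The number of reads behind an interval is unknown, regional copy number was not used here, and the assay reads DNA, so the cell line could not be checked against marker genes.

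DNA replication starts at many origins along each chromosome, and regions of a chromosome replicate at characteristic times in S phase. A nascent strand is the short new DNA next to an origin, and its RNA primer shields it from lambda exonuclease during isolation. The end of a human chromosome carries a telomere of short repeats and, inside it, a subtelomere of sequence shared between chromosomes. Many distal bands farther in are known to be rich in genes and in G and C bases. U2OS is also known for maintaining its telomeres by recombination and not by telomerase. The highest interval end is the outermost point that the deposited lists reach, and positions are in hg19. Genes and sequence at these positions were not analysed here.

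Intervals were packed more densely at the long-arm ends than in the remainder, and intervals there were wider, closer together and slightly more enriched. A 1 Mb window held a median of 158 ± 70.8 intervals in the ends and 49.4 ± 51.7 in the remainder (mean ± SD of the chromosome medians, n = 22, windows with at least 1 interval). The end was denser on 20 of 22 chromosomes, and chromosomes 1 and 19 ran the other way. The mean log2 ratio was 2.11 ± 1.39 (SD, n = 22), which is 4.33-fold and larger than the spread over chromosomes. With the mean over windows in place of the median, the log2 ratio was 1.37 on 20 of 22 chromosomes. Counted over all ends together, there were 156 intervals per Mb in the ends and 53.0 per Mb in the remainder. Intervals covered 18.4 ± 12.2% of the bases in an end and 5.52 ± 4.703% in a remainder (mean ± SD, n = 22). Of the 110 windows of 1 Mb in the ends, 61 (55.5%) were among the densest 10% of the windows of their own chromosome. The densest window of the whole chromosome lay in the end on 8 chromosomes.

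**Figure D1:**
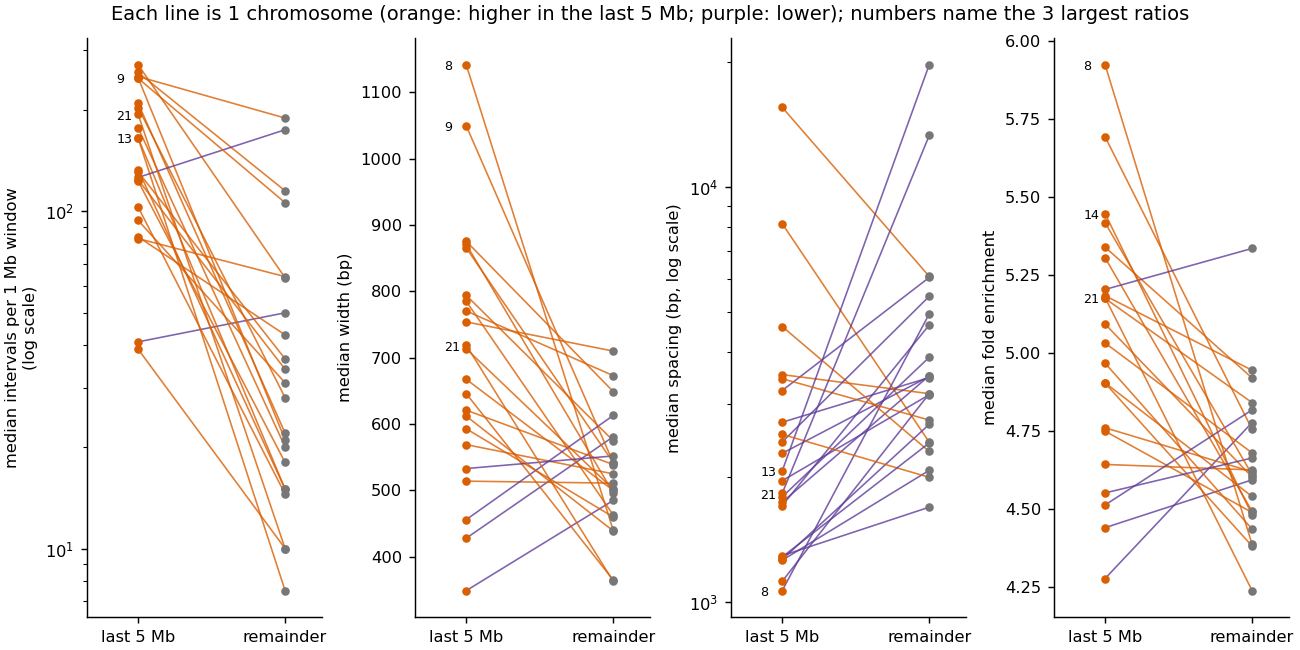
Density (intervals per 1 Mb window, log scale), width (bp), spacing (bp, log scale) and fold enrichment, as medians in the last 5 Mb (left of each panel) and in the remainder (right) of each of 22 chromosomes; 1 line is 1 chromosome. Density was higher in the end on 20 of 22 chromosomes, width on 18, fold on 17, and spacing was shorter on 16.

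The ends differed widely from one another. The fullest ends were those of chromosome 16 with 1339 intervals, chromosome 17 with 1304 and chromosome 22 with 1244. The emptiest were those of chromosome 4 with 179, chromosome 1 with 221 and chromosome 11 with 365. The contrast with the remainder was widest on chromosomes 13, 21 and 9. Chromosome 13 had a median of 165 intervals per window in its end and 7.5 in its remainder. Chromosome 21 had 194 in its end and 10 in its remainder, and chromosome 9 had 249 in its end and 21 in its remainder. Chromosome 13 was sparse along most of its length and dense at its long-arm end. Chromosome 22 was dense throughout, with 251 per window in its end and 189 in its remainder. On chromosome 19 the order was turned, with 126 in its end and 174.5 in its remainder, and on chromosome 1 it was 41 in the end and 50 in the remainder.

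By 1 Mb step from the end, the number of intervals was highest in the second step. The steps held 3515, 3850, 3527, 3336 and 2936 intervals from the outermost inward. Per chromosome these were 160 ± 64.9, 175 ± 80.0, 160 ± 86.0, 152 ± 76.9 and 133 ± 89.1 (mean ± SD, n = 22). The next 5 steps, outside the ends, held between 86.2 ± 81.6 and 107.5 ± 84.8. Counts thus went on declining past the 5 Mb limit, as far as step 8. Chromosomes did not share one profile: the fullest step was the first on 5 chromosomes, the second on 6, the third on 3, the fourth on 6 and the fifth on 2. The first step held more intervals than the fifth on 11 of 22. Chromosome 18 had 242 intervals in its outermost step and 55 in step 5, whereas chromosome 14 had 49 in its outermost step and 213 in its second.

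**Figure D2:**
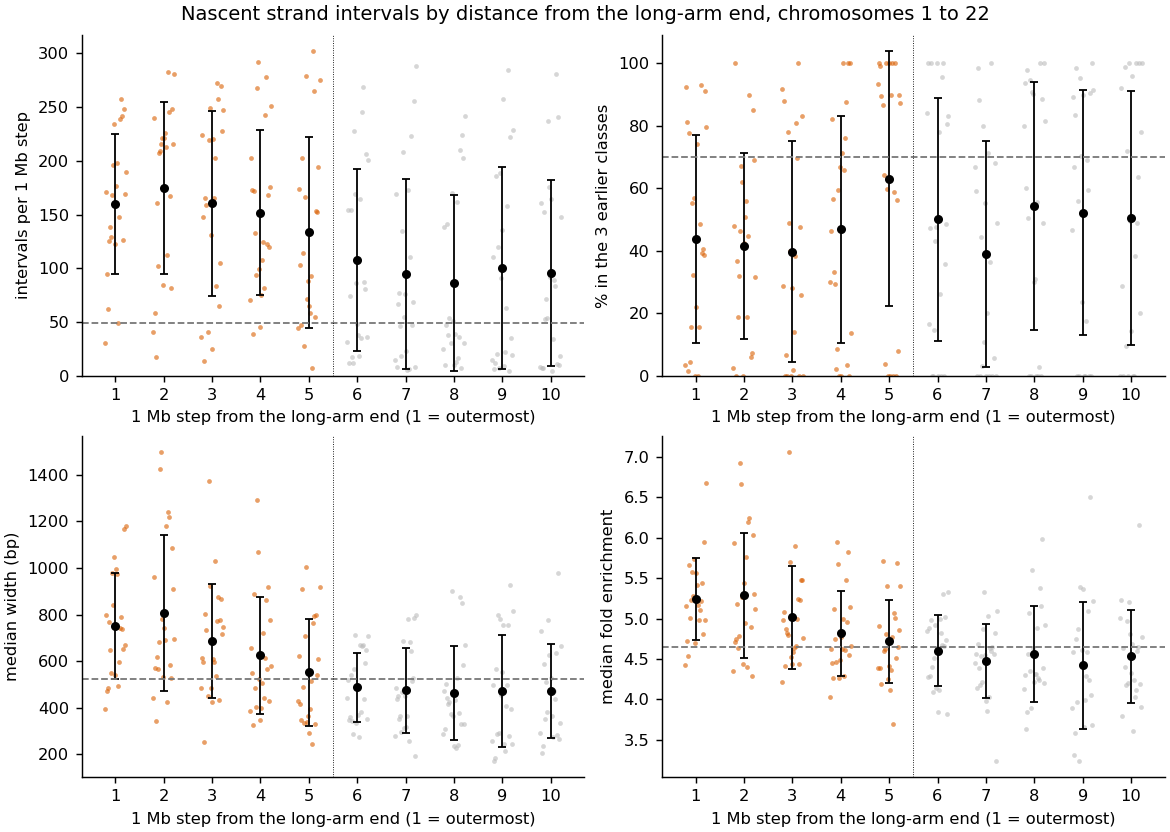
Intervals per 1 Mb step, share in the 3 earlier timing classes (%), median width (bp) and median fold enrichment against the step from the long-arm end, steps 1 to 10. Coloured points are chromosomes in the last 5 Mb, grey points chromosomes in the flank, black points and bars the mean and SD (n = 22), and the dashed line the mean of the remainder. In the count panel that line is the mean of chromosome medians over windows with at least 1 interval (49.4). The black points there are mean counts, and the like mean for the remainders was 62.2 per Mb. Width and fold were highest in the 2 outermost steps and lay below the dashed line from step 6 on. For both, that line averages medians over all remainder intervals of a chromosome, whereas a sparse step weighs as much as a dense one. The same holds for the share in the earlier classes.

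Width and enrichment were highest near the end. The median width per chromosome was 751 ± 228 bp in the outermost step, then 805 ± 335, 687 ± 244, 624 ± 253 and 553 ± 230 bp in the fifth (mean ± SD, n = 22). It was 488 ± 147 bp in the sixth step, outside the ends. The first step was wider than the fifth on 15 of 22 chromosomes. Median fold enrichment was 5.24 ± 0.51 in the outermost step, then 5.29 ± 0.77, 5.02 ± 0.64, 4.82 ± 0.53 and 4.72 ± 0.51. It was higher in the first step than in the fifth on 19 of 22. In the sixth step it was 4.60 ± 0.43. The fold belongs to the replicate 1 peak that shares most bases with the interval and was given by the authors' peak caller. The share of intervals at 20-fold and above was 2.45% in the outermost step, then 2.03%, 1.87%, 1.23% and 0.749% in the fifth. Between the first and the fifth step, mean width differed by less than the SD over chromosomes, and mean fold by about 1 SD.

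The authors sorted the intervals into 6 replication timing classes, from very early to very late, by a rule the sources used here do not give. Taken as a whole, the long-arm ends held later classes than the remainder. The 3 earlier classes (very early, early and mid early) made up 47.95 ± 21.4% of the intervals in an end and 69.9 ± 9.98% in a remainder (mean ± SD, n = 22). The difference was −21.98 ± 22.3 percentage points, as large as the spread over chromosomes, and it was negative on 18 of 22. Most intervals were in the 3 later classes in 13 of 22 ends and in 2 of 22 remainders. On 16 chromosomes the end was both denser and later than the remainder. Mid late intervals made up 38.1% of all members, against 20.1% of the remainder. Very early intervals made up 5.29% of the members and 15.5% of the remainder, and early ones 16.0% of the members and 27.3% of the remainder. Mid late was the most frequent class in 16 of 22 ends and in 3 of 22 remainders. The late and very late classes together did not follow the same course: they made up 12.1 ± 13.8% of an end and 8.40 ± 4.38% of a remainder, and were higher in the end on 9 of 22 chromosomes. Counted as the share outside these 2 classes, the difference between end and remainder shrank to −3.69 points.

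**Figure D3:**
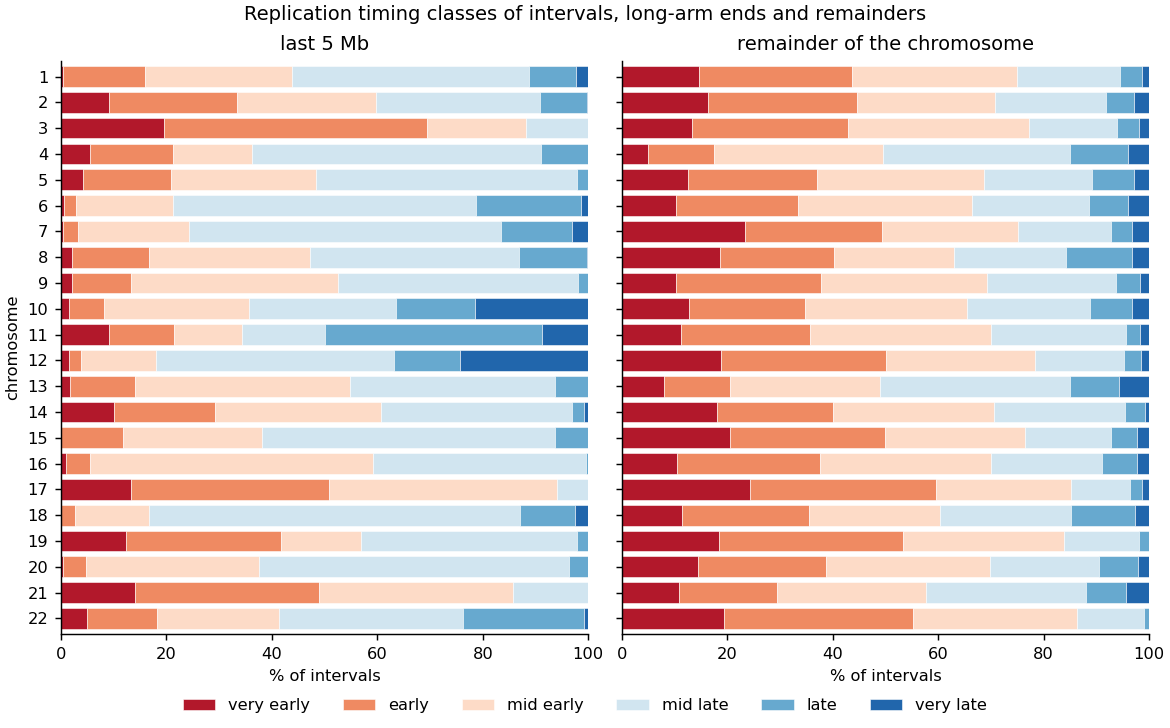
Share of intervals (%) in the 6 timing classes for each of chromosomes 1 to 22, in the last 5 Mb (left) and in the remainder (right). Mid late is the most frequent class in 16 ends and 3 remainders, and ends 10 and 12 hold most of the very late members.

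Set against length, the ratio of ends to remainder was highest for the mid late class and lowest for the very early class. Very early intervals numbered 8.25 per Mb in the ends and 8.22 in the remainder, pooled over chromosomes. As a mean over chromosomes this was 8.25 ± 9.88 per Mb in the ends and 10.2 ± 8.90 in the remainders (SD, n = 22), lower in the end on 13 of 22. Early intervals numbered 24.95 per Mb in the ends and 14.5 in the remainder, a ratio of 1.73, yet were more frequent in the end on 10 of 22 chromosomes. Mid early intervals numbered 47.0 per Mb in the ends and 15.8 in the remainder (2.98-fold, higher on 18 of 22). Mid late intervals numbered 59.5 per Mb in the ends and 10.7 in the remainder (5.58-fold, higher on 21 of 22). Late intervals numbered 12.3 per Mb in the ends and 2.78 in the remainder (4.42-fold, higher on 16 of 22). Very late intervals numbered 4.04 per Mb in the ends and 1.11 in the remainder (3.63-fold), but were more frequent in the end on 9 of 22 chromosomes. The ends thus held 18.6% of all mid late intervals of chromosomes 1 to 22, and 3.95% of the very early ones. The length of genome that each class occupies was not used here, so a denser class and a longer class cannot be told apart.

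Timing differed between steps and between chromosomes. The earlier classes made up 50.1% of all intervals in the outermost step, then 48.2%, 40.0%, 50% and 72.5% in the fifth. They made up 72.6% of all remainder intervals, so the fifth step was close to the remainder. In steps 6 to 10, outside the ends, they made up 61.4%, 56.5%, 71.9%, 72.6% and 72.2%. These shares are pooled, so chromosomes with many intervals weigh more. The mean over chromosomes was 43.8, 41.6, 39.6, 46.9 and 63.0% in steps 1 to 5, with SDs of 29.7 to 40.7 (n = 22). In steps 6 to 10 it lay between 38.9 ± 36.2% and 54.3 ± 39.6%. A sparse step weighs as much as a dense one here, so these step means are not set against the 69.9% of the remainder. Pooled over chromosomes, the late and very late classes were most frequent in the third step, at 21.04%, against 7.85% in the outermost. The outermost step had a lower earlier share than the fifth on 15 of 22 chromosomes. Along each end, neighbouring intervals had the same class in 92.3% of 17142 pairs, against 88.3% of 142304 pairs in the remainder. These shares are per pair and not per Mb. With 156 intervals per Mb in the ends and 53.0 in the remainder, they do not compare how often class changed along the sequence. Of the 1325 changes of class in the ends, 665 were to a later class in the direction of the chromosome end and 660 to an earlier one. The ends therefore alternated between earlier and later stretches. These counts cannot decide whether there was also a gradient, because opposite changes largely cancel along any ordered series of classes. Across steps 1 to 5, the earlier share was lowest in the third step, both pooled (40.0%) and as a mean over chromosomes (39.6%). A mid late stretch held a median of 11 intervals over 61.7 kb, and a very early one 4 intervals over 25.4 kb.

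The ends of chromosomes 3, 13, 17 and 21 held a larger share of the earlier classes than their own remainders. Chromosome 17 had 94.0% of its end in the 3 earlier classes, against 85.1% of its remainder. Chromosome 3 had 88.2% in its end and 77.2% in its remainder. Chromosome 21 had 85.7% in its end and 57.8% in its remainder, and chromosome 13 had 54.8% in its end and 49.1% in its remainder. The earlier classes also held most of the ends of chromosomes 2 (59.8%), 9 (52.5%), 14 (60.7%), 16 (59.2%) and 19 (56.9%), each below its own remainder. The ends of chromosomes 3, 17 and 21 held no late or very late interval. The long very early stretch of 99 intervals on chromosome 17 (chr17:76392439-76735714) lay 4.44 to 4.78 Mb from the end and spanned 343 kb.

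At the other extreme, the earlier classes made up 16.7% of the end of chromosome 18, 18.1% of that of chromosome 12 and 21.2% of that of chromosome 6. Their remainders held 60.4%, 78.4% and 66.5%. On chromosome 18 the mid late class alone held 459 of the 652 members. On chromosome 11, 49.9% of the members were late or very late, against 4.45% of the remainder, and both outermost steps held no interval of an earlier class. On chromosome 22 the late and very late share was 23.8% in the end and 0.862% in the remainder. Its late members included a stretch of 66 intervals over 316 kb (chr22:48359601-48675112), 2.55 to 2.87 Mb from the end.

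Very late members were concentrated on 2 chromosomes. Of 444 very late members, 348 (78.4%) lay on chromosomes 10 and 12, and 11 of 22 ends held none. On chromosome 10 the 163 very late members lay between 2.48 and 4.96 Mb from the end, and on chromosome 12 the 185 lay between 2.64 and 4.99 Mb. The 2 outermost steps of chromosome 10 were mostly of the earlier classes (56.8% and 62.0%), and its steps 3, 4 and 5 held none of these classes. On chromosome 12 a stretch of 62 very late intervals spanned 720 kb (chr12:128855038-129574877) with a median width of 291.5 bp. On the same arm, nearer the end, 126 mid late intervals spanned 468 kb (chr12:131677225-132144739) with a median width of 751 bp. The outermost interval itself was mid early on 8 chromosomes, mid late on 7, very early on 4 and early on 3.

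Wider intervals accompanied the dense ends. The median width of an interval was 697 ± 195 bp in the ends and 524 ± 88.5 bp in the remainders (mean ± SD of chromosome medians, n = 22). The log2 ratio was 0.38 ± 0.48, wider in the end on 18 of 22 chromosomes but smaller than its spread. Over all intervals the median was 727 bp in the ends (quartiles 375 and 1402 bp) and 542 bp in the remainder (288 and 1022 bp). Of the members, 1318 (7.68%) were 3 kb or wider, against 4982 (3.50%) of the remainder. The ends therefore held 20.9% of all intervals this wide on chromosomes 1 to 22. Chromosome 8 stood highest, with a median width of 1141.5 bp in its end and 440 bp in its remainder. On chromosome 8, 19.5% of the members were 3 kb or wider, against 1.41% of the remainder. Chromosome 9 followed with 1049.5 bp in its end and 542 bp in its remainder, and chromosome 17 with 875.5 bp in its end and 649 bp in its remainder. The narrowest were chromosome 4 with 349 bp, chromosome 1 with 428 bp and chromosome 11 with 456 bp.

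Enrichment differed in the same direction, by less. The median fold was 5.03 ± 0.41 in the ends and 4.65 ± 0.24 in the remainders (n = 22), a log2 ratio of 0.11 ± 0.14 with a higher end on 17 of 22. Members of 20-fold or more numbered 293 (1.71%), against 1150 (0.808%) in the remainder. They came from 293 different replicate 1 peaks and were found in 21 of 22 ends, with none on chromosome 1. Chromosome 8 had the highest median, 5.92 in its end and 4.39 in its remainder, and chromosome 9 the next, 5.69 in its end and 4.75 in its remainder. In the third step of chromosome 8 the median was 7.06, the highest of the 110 steps. By share of intervals at 20-fold or more, chromosome 7 led with 3.21% of its members, against 1.01% of its remainder, although its median of 4.76 was near that of its remainder (4.62). Across the 22 ends, width and density moved together (Pearson r = 0.78, Spearman rho = 0.82), as did fold and density (Pearson r = 0.77, Spearman rho = 0.75). Width and fold were the most closely related (Pearson r = 0.98, Spearman rho = 0.97), so their relations to density are not 2 separate results. Earlier share and density were more weakly related (Pearson r = 0.33, Spearman rho = 0.37). These points share both libraries and 1 peak call, so the correlations are descriptions.

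The differences in width and fold were also present among intervals of the same timing class. Averaged over the classes with at least 20 intervals on both sides, the log2 ratio of end to remainder was 0.39 ± 0.42 for width and 0.12 ± 0.13 for fold (SD, n = 22, higher in the end on 18 of 22 for both). Mid late intervals had a median width of 763 ± 263 bp in the ends and 496 ± 94.7 bp in the remainders, a ratio of 1.48 (wider on 18 of 22). Late intervals measured 632 ± 246 bp in the ends and 428 ± 47.8 bp in the remainders (ratio 1.41, wider on 12 of 14 chromosomes). Mid early intervals measured 733 ± 212 bp in the ends and 563 ± 102 bp in the remainders (1.27, 16 of 22). Early intervals measured 691 ± 216 bp in the ends and 546 ± 116 bp in the remainders (1.23, 13 of 18). Very early ones measured 643 ± 210 bp in the ends and 510 ± 95.9 bp in the remainders (1.23, 8 of 11). Very late intervals, on 3 chromosomes, measured 491 ± 124 bp in the ends and 441 ± 60.3 bp in the remainders and were wider in the end on 1 of 3. For fold the ratio was highest in the mid late class, at 1.13 (5.18 ± 0.56 in the ends, 4.57 ± 0.19 in the remainders, higher on 18 of 22). By mean width the mid late class was the widest in the ends, and the mid early class in the remainders.

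**Figure D4:**
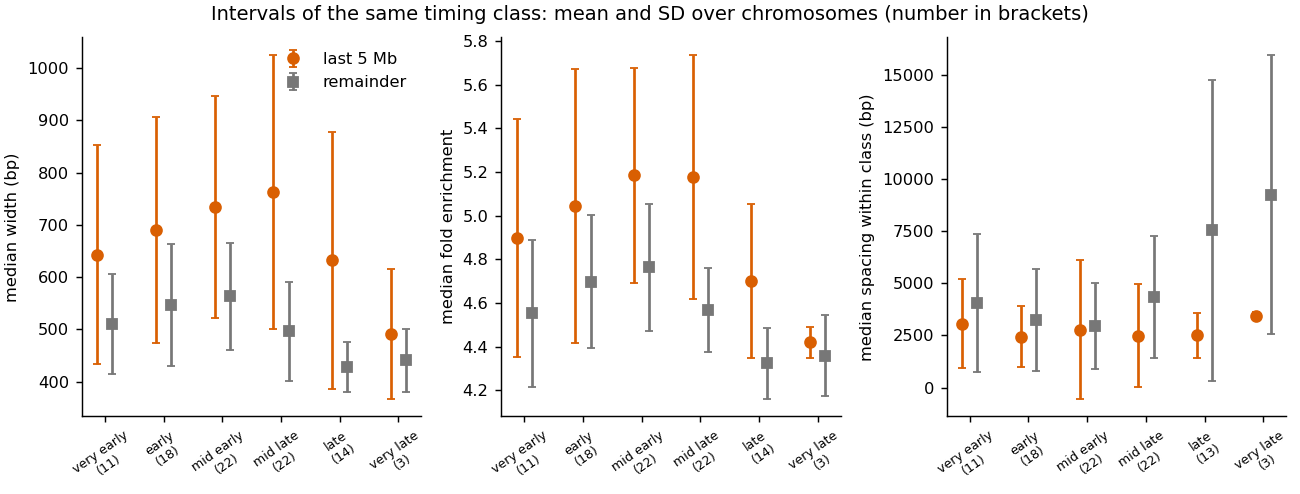
Median width (bp), median fold enrichment and median spacing (bp, between neighbours of the same class) by timing class, as mean and SD over the chromosomes with at least 20 intervals on both sides (their number stands in brackets). Mid late intervals were 763 ± 263 bp wide in the ends and 496 ± 94.7 bp in the remainders; very late values rest on 3 chromosomes.

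Spacing here means the stretch of sequence left between neighbouring intervals. Its median per chromosome ranged from 1067 to 15535.5 bp in the ends, with a middle value of 2017 bp, and from 1694.5 to 19676 bp in the remainders, with a middle value of 3327 bp. The mean log2 ratio was −0.70 ± 1.23 (n = 22, shorter in the end on 16 of 22), smaller than the spread. The shortest spacings in the ends were 1067 bp on chromosome 8, 1124 bp on chromosome 9 and 1263 bp on chromosome 17. The longest were 15535.5 bp on chromosome 4, 8154 bp on chromosome 1 and 4612 bp on chromosome 11. Between neighbours of the same class the log2 ratio was −0.64 ± 1.01 (shorter on 17 of 22). Late intervals lay 2508 ± 1074 bp apart in the ends and 7545 ± 7215 bp in the remainders (n = 13 chromosomes, shorter on 10). Mid late ones lay 2481 ± 2469 bp apart in the ends and 4332 ± 2917 bp in the remainders (n = 22, shorter on 17).

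Empty stretches were rare in the ends. Of 1100 bins of 100 kb, 30 (2.73%) held no member, and a bin held a median of 15 (quartiles 6 and 24). On a chromosome, 2.73 ± 3.78% of the bins were empty in the end and 27.97 ± 11.9% in the remainder, which includes the centromere (n = 22, lower in the end on 22 of 22). Members were still unevenly spread: the fullest 302 bins (27.5%) were enough to hold 50% of them. The fullest bin held 42 intervals on chromosome 13 (chr13:113656202-113752609), 1.3 to 1.4 Mb from the end. Its intervals covered 47.3 kb, had a median fold of 4.92 and none was in an earlier class. The next held 40 intervals on chromosome 22 (chr22:49925274-50024673), with 17.5% in the earlier classes. Full bins also occurred in early stretches: 39 intervals on chromosome 16 (chr16:87642920-87741004) were all in the earlier classes. Gaps of 100 kb or more numbered 54, on 13 chromosomes. The longest was 391 kb on chromosome 4 (chr4:189326653-189717840), followed by 309 kb on chromosome 15 (chr15:97926803-98235835) and 302 kb on chromosome 14 (chr14:106477993-106780155).

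**Figure D5:**
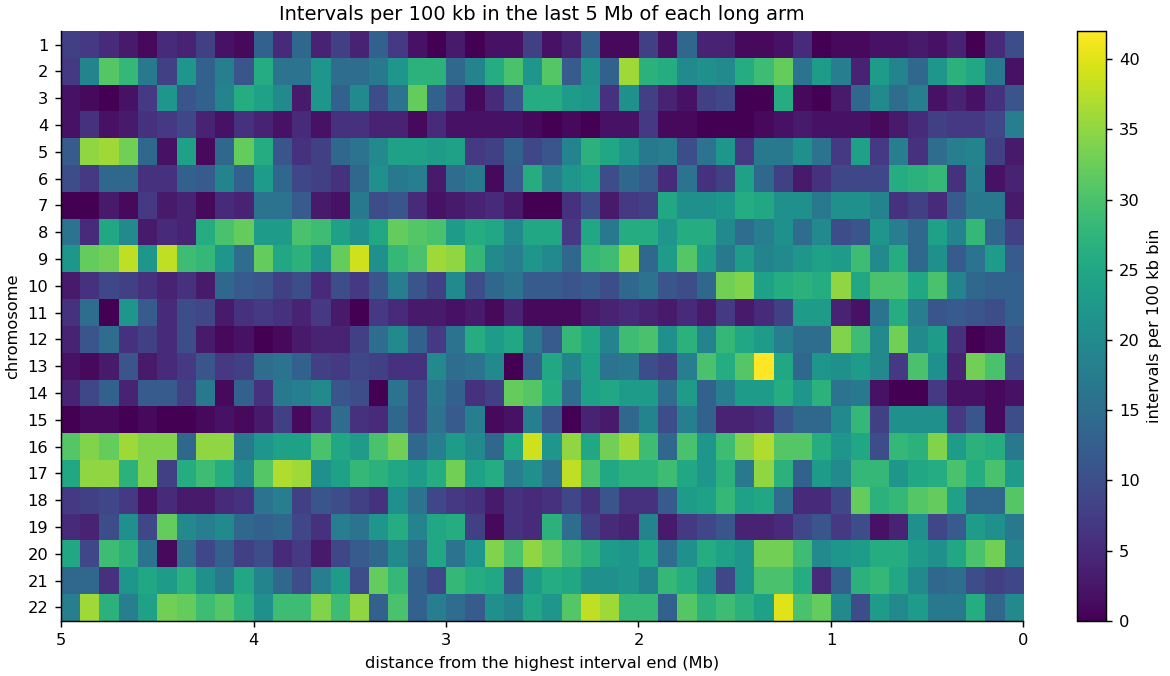
Number of intervals in each 100 kb bin (colour) by distance from the highest interval end (Mb) and chromosome. Bins hold 0 to 42 intervals; chromosomes 9, 16, 17 and 22 are full along the 5 Mb, and chromosomes 1 and 4 are sparse.

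The ends of chromosomes 1, 4, 7, 11, 15 and 19 ran against the majority in density, width, fold or spacing. On chromosome 1 the end was sparser, narrower (428 bp, against 581 bp in the remainder) and less enriched (4.28, against 4.78). On chromosome 11 the end was narrower (456 bp, against 613 bp) and less enriched (4.51, against 4.82) although its windows were denser (84, against 43). On chromosome 15 the differences were small, at 533 bp in the end and 552 bp in the remainder, and a fold of 4.55 in the end and 4.66 in the remainder. On chromosome 4 the end was narrower (349 bp, against 485 bp) and less enriched (4.44, against 4.59). It held 39 intervals per window and the remainder 10, but median spacing was longer in the end (15535.5 bp, against 6089 bp). Of its 179 members, 62 lay in the outermost step, and 17 and 14 in steps 2 and 3. On chromosome 19 the end was wider (754 bp, against 710 bp) and slightly less enriched (5.204, against 5.34). On chromosome 7 spacing was longer in the end (3533 bp, against 3179 bp). Its 2 outermost steps held 129 and 207 intervals, and step 5 held 28.

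Peak strength and the match of the 2 libraries moved with these values, and their part in the differences was not tested beyond the selection given last. The median −log10 q of the authors' replicate 1 peaks was 6.01 ± 1.45 in the ends and 5.04 ± 0.57 in the remainders (n = 22, higher in the end on 16 of 22). The numbering of replicate 1 peaks along the chromosome gives the share that was kept in the intersection, if peaks were numbered without gaps. That share was 74.0 ± 7.15% in the ends and 69.9 ± 4.31% in the remainders (higher on 16 of 22). It was highest on chromosome 8, with 86.6% in its end and 69.1% in its remainder, and lowest on chromosome 1, with 60.2% in its end and 71.3% in its remainder. The chromosomes with a lower share in the end (1, 4, 7, 11, 15 and 19) were those with longer spacing in the end. The share of an interval's bases covered in both libraries was 57.3 ± 4.83% in the ends and 56.7 ± 2.21% in the remainders (higher on 11 of 22). Intervals built from more than 1 shared piece made up 18.8 ± 8.05% in the ends and 13.5 ± 4.01% in the remainders. When weaker intervals, below a −log10 q of 5, were left out, the log2 ratio was 0.30 for width, 0.07 for fold and 2.33 for density. Both quantities come from 1 peak, so this selection is not independent of the fold.

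The 10 most enriched members lay on 8 chromosomes, and 7 of them were in the 2 outermost steps. Those steps held 3515 and 3850 of all 17164 members. The most enriched was a mid late interval of 2322 bp on chromosome 18 (chr18:77671028-77673349), 345 kb from the end, at 234-fold. It was followed by a mid late interval of 1099 bp on chromosome 7 (chr7:158898873-158899971), 185 kb from the end, at 165-fold. The third, at 157-fold, was a very early interval of 220 bp on chromosome 13 (chr13:110076471-110076690), 4.98 Mb from the end and so close to the limit of the ends. Chromosome 20 had 3 of the 10. They were an early interval at 144-fold (chr20:62465674-62469444) and mid early ones at 105-fold (chr20:61623827-61625191) and 90.7-fold (chr20:62572577-62573948). The others were a very early interval on chromosome 21 (chr21:46706713-46708623, 115-fold), an early one on chromosome 2 (chr2:242509293-242512044, 112-fold), a mid late one on chromosome 6 (chr6:168400567-168401427, 92.2-fold) and a late one on chromosome 22 (chr22:48491579-48493479, 88.3-fold). Peaks of both libraries covered from 52.3% (chromosome 18) to 99.2% (chromosome 2) of these intervals. By class, 131 of the 293 members of 20-fold or more were mid late (2.00% of that class in the ends), 90 were mid early (1.74%), 36 early (1.31%), 22 late (1.62%), 9 very early (0.991%) and 5 very late (1.13%).

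The widest members were mid late and of moderate enrichment. The widest measured 32112 bp on chromosome 8 (chr8:145718006-145750117), 560 kb from the end, with a fold of 10.1. It was built from 13 shared pieces that covered 74.97% of it. The next measured 20840 bp on chromosome 8 (chr8:144946447-144967286, fold 12.1, 7 pieces), and the one after it 20082 bp on chromosome 22 (chr22:50893140-50913221, fold 8.57, 10 pieces). The widest interval of the remainder measured 23006 bp. Among the outermost intervals the narrowest, on chromosome 14, measured 221 bp, and the widest, on chromosome 20, measured 2263 bp. Their folds ran from 2.12 on chromosome 1 (chr1:249240058-249240533) to 19.8 on chromosome 12 (chr12:133841515-133841898). Peaks of both libraries covered 24.2% of that outermost interval on chromosome 1, 8.42% of the one on chromosome 17 and 99.5% of the one on chromosome 12. The fold of 2.12 was the lowest of all members.

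Short-arm ends were taken for comparison as the first 5 Mb after the lowest interval start. They exist here for 17 chromosomes, since the short arms of 13, 14, 15, 21 and 22 are known to carry mostly repeats. On these 17 chromosomes a long-arm end held 769 ± 353 intervals and a short-arm end 634 ± 401 (mean ± SD), with more at the long arm on 10 of 17. Median width was 693 ± 213 bp at long-arm ends, 625 ± 211 bp at short-arm ends and 521 ± 71.7 bp in the interior between them. Median fold was 5.03 ± 0.44, 4.91 ± 0.52 and 4.64 ± 0.22 in the same order. The earlier classes made up 45.5 ± 22.02% of long-arm ends, 54.0 ± 27.8% of short-arm ends and 71.2 ± 8.40% of the interior. Short-arm ends were wider than the interior on 12 of 17 chromosomes and had a lower earlier share on 11 of 17. Each difference between the 2 kinds of end was smaller than its spread over chromosomes, with log2 ratios of long over short arm of 0.55 ± 1.82 for number, 0.17 ± 0.78 for width and 0.04 ± 0.22 for fold. The arms of single chromosomes differed strongly. Chromosome 9 had 1232 members at its long-arm end and 71 intervals at its short-arm end. On chromosome 4 it was 179 at the long arm and 847 at the short arm, and on chromosome 1 it was 221 at the long arm and 988 at the short arm.

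Pooled over chromosomes, the intervals just inside and just outside the 5 Mb limit were similar in width, fold and earlier share. The 223 intervals in the innermost 100 kb of the ends had a median width of 600 bp, a median fold of 5.02 and 79.8% in the earlier classes. The 248 intervals in the first 100 kb outside had a median width of 652 bp, a median fold of 4.81 and 77.4% in the earlier classes. Pooled values cannot show continuity on a single chromosome. The innermost 100 kb held no member on chromosomes 7 and 15, and 31 on chromosome 16.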

How the data were processed

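Nascent strand DNA from 2 libraries of 1 group was sequenced. BWA, MACS2 and hg19 appear in the submitters' processing notes. Their versions and parameters, and any control library, were not given in the sources used here. Deposited by the authors were 1 broad peak list, whose fold enrichment (a ratio) and −log10 q belong to whole replicate 1 peaks, and whose score was not used. They also deposited 6 timing lists whose score is a constant 1000.

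Each name was taken as 1 interval, the span of its lines. The 6 lists held 183632 lines for 161869 names, and 848 members stood on 2 lines. An interval took the class of its first line, with lists read from very early to very late. The class shares and the class counts per Mb follow this rule. With every line counted, the difference in earlier share was −23.8 ± 22.5 points (SD, n = 22). Each interval took the fold of the replicate 1 peak sharing most bases, at least 1 bp, and 13 members had none. Windows and steps of 1 Mb were laid back from the highest interval end. For each chromosome, the median in the last 5 Mb was set against its remainder, and log2 ratios (percentage points for class shares) were averaged over 22 chromosomes, with SD. The script was tested on simulated data. Members, measures and named intervals were chosen with earlier results of these data known. Named are the 10 highest folds, the 3 widest, the fullest 100 kb bins, the longest gaps and outermost members; further bins and gaps, and class runs, were added after their values were seen. The tools were pandas 2.3.3, numpy 2.4.6 and matplotlib 3.10.9 under Python 3.11.15. The alternatives were other end lengths, peak strength, lines, width, merging, remainders, averages and left-out chromosomes.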

Additional observations from a re-analysis of the deposited data

Results flagged for a closer look

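Intervals were also found in data outside the comparisons. Chromosome X entered none of the comparisons and held 421 intervals within 5 Mb of its highest interval end. Since that end is set by an interval, the count could not be 0 and is given as a description. Their median width was 897 bp, against 448 bp in the 1859 intervals of its remainder, and their median fold was 5.64, against 4.50. The earlier classes made up 47.5% of them and 49.2% of its remainder. In the 22 ends, 314 of the 23225 shared pieces overlapped no named interval. No group held enough libraries to look for an outlying sample.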

How the results depend on the processing

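No replicate could be left out, because the lists hold only the intersection of both libraries. No paired analysis was possible because there is 1 group. In 15 settings, 76 mean values of the 8 measures kept their sign and lay within 1 SD over chromosomes of the reported value. That SD is wide, so this says little about precision. The log2 ratio of density ranged from 1.37 (mean over windows) to 2.33, that of width from 0.25 (last 10 Mb) to 0.45 (last 3 Mb), that of fold from 0.07 to 0.15 and that of spacing from −0.78 to −0.47. The difference in earlier share ranged from −28.7 points (last 3 Mb) to −3.69 (share outside the late and very late classes), and to −17.3 with the last 10 Mb. For the share outside the late and very late classes, most chromosomes went the other way. It was higher in the end on 13 of 22 and lower on 9, whereas the reported share was higher on 4 and lower on 18. Within class, the log2 ratio ranged from 0.21 (last 10 Mb) to 0.47 (last 3 Mb) for width, from 0.07 to 0.15 for fold and from −0.73 to −0.43 for spacing. Leaving out each chromosome in turn gave 2.00 to 2.24 for density, −24.4 to −20.2 points for earlier share, 0.33 to 0.42 for width, 0.10 to 0.13 for fold and −0.81 to −0.57 for spacing. Spacing was not computed with every line counted, because repeated lines of 1 name overlap.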
